A study of Mus musculus with 24 samples.

Results

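The arterial endothelial genes described here are 9 genes chosen by name, Gkn3, Alpl, Edn1, Bmx, Gja4, Gja5, Mgp, Fbln5 and Stmn2, out of 22180 genes measured with a probe set that names a single gene. All 9 were measured, each through its brightest probe set, and Alpl had 2 probe sets while the others had 1. Values come from 24 Affymetrix arrays of endothelial cells that were sorted with magnetic beads through Cd144 and Cd105 after papain dissociation. The 8 Wnt arrays are from medulloblastomas of mice with Blbp-Cre and the alleles Ctnnb1 +/Exon3 flox, Trp53 flox/flox and Pik3ca +/flox, where Blbp-Cre acts in neural progenitors and glia and is not an endothelial driver. The 8 Shh arrays are from medulloblastomas of Ptch+/- mice that were also Ink4c-/-, alleles written without a Cre. The 8 hindbrain arrays are from wild-type adult mice. The strain background of every group is mixed, and the ages of the tumour mice are not given in the labels. Each array is called a biological replicate, without saying whether animals were pooled.

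Endothelium differs along the vascular tree, and in the brain the arteries, arterioles, capillaries and veins each express their own set of genes. Arterial identity is set during development by VEGF, Notch and Sox17 and is kept up by fast laminar flow, and arterial endothelium signals to the smooth muscle around it. The 9 genes stand for several sides of this state. Gkn3, a secreted gastrokine, and Alpl, tissue-nonspecific alkaline phosphatase, mark brain arteries and arterioles in mice. Edn1 encodes the vasoconstrictor endothelin 1, Bmx a Tec family kinase of arterial endothelium, and Gja4 and Gja5 a pair of connexins, the proteins of gap junctions. Mgp, an inhibitor of calcification and of BMP signalling, and Fbln5, an elastic fibre protein, are also made by smooth muscle and fibroblasts, and Stmn2, a microtubule regulator, is best known from neurons.

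The promoters of Gkn3, Bmx and Edn1, chosen because they hold the GATAA matches among these genes, and of Gja4, as 1 without a match, are shown 5′ to 3′ from 250 bases before to 50 bases after the gene's start (RefSeq, build GRCm38.p6). Capitals mark matches to the GATA letters GATAA on either strand, so that TTATC is the same match read from the other strand.
Gkn3 promoter, chr6:87388886-87389185, minus strand: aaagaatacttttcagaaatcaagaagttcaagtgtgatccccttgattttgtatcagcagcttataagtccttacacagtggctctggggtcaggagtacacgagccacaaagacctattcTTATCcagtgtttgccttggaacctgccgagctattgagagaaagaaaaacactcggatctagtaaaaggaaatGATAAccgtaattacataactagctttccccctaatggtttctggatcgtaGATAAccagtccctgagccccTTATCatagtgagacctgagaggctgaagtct
Bmx promoter, chrX:164258144-164258443, minus strand: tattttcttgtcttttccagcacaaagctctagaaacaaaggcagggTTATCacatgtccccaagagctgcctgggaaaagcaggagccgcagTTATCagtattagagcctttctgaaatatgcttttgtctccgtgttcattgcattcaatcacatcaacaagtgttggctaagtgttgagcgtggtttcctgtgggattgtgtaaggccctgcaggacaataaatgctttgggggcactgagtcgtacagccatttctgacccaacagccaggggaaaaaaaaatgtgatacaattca
Edn1 promoter, chr13:42301226-42301525, plus strand: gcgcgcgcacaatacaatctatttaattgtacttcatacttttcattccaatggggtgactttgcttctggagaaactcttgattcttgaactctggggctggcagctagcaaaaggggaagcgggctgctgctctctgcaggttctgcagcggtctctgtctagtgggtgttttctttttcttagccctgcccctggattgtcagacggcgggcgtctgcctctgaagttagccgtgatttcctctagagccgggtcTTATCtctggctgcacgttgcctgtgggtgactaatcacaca
Gja4 promoter, chr4:127313990-127314289, minus strand: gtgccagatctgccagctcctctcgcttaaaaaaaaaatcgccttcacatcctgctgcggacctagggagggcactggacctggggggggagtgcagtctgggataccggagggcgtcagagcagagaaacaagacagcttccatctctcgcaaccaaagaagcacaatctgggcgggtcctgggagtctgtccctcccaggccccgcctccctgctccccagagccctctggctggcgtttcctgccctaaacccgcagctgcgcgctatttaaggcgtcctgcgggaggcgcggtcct

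GATAA was found 4 times in the promoter of Gkn3, 2 times in that of Bmx, 1 time in that of Edn1 and 0 times in that of Gja4. It was found 0 times in both windows of Alpl, which fell in both tumours, and 0 times in those of Gja5 and Fbln5. Among 32851 promoter windows of 300 bases, 25.4% held GATAA. The promoter table held 9 windows for 7 of the 9 genes, and 3 of the 9 windows held GATAA. Of the other letters searched on both strands, TGANTCA of AP-1 was in 0 of the 9 windows (7.81% of all windows), TGGGAA of the Notch partner RBPJ in 2 (25.6%), ACAAT of SOX factors in 5 (31%) and CACCC of KLF factors in 5 (57.5%). No string searched is contained in another. A match is a description of the letters and not a measured site. Promoters of Stmn2 and Mgp are not shown.

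On the log2 scale of the deposited values, the median of an array was 5.97 to 6.18, and arrays within a group correlated at 0.965 to 0.994 over all genes. A value is called dim here where it is under 5.24, the 95th percentile of 92 probe sets against ERCC spike-in sequences. The sort antigen transcripts were bright in every group, with Cdh5, which encodes Cd144, at 12.41 ± 0.35 in Wnt, 12.89 ± 0.14 in Shh and 12.82 ± 0.087 in hindbrain arrays (SD, n = 8 each). The mean over 16 endothelial markers was 10.64 (9.94 to 11.15) in Wnt arrays, 11.51 (11.27 to 11.76) in Shh arrays and 11.58 (11.37 to 11.72) in hindbrain arrays, and 15 of 16 fell in Wnt against hindbrain (median log2 difference -0.89). The sort takes all endothelium, so the share of arterial cells on an array was not measured, and fewer arterial cells and less RNA per arterial cell cannot be told apart.

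Most of the arterial genes were lower in the tumours, but not to the same degree and not all of them. In Wnt against hindbrain, 5 of the 9 fell (Gkn3, Edn1, Stmn2, Bmx and Alpl), 2 rose (Mgp and Fbln5) and 2 did not pass the test (the connexins Gja4 and Gja5). In Shh against hindbrain, 5 fell (Gkn3, Alpl, Bmx, Stmn2 and Gja5), 1 rose (Mgp) and 3 did not pass the test (Edn1, Gja4 and Fbln5). Between the tumours, Alpl and Fbln5 were higher and Edn1 and Stmn2 lower in Wnt than in Shh arrays, and the other 5 did not pass. A gene passed at an adjusted p under 0.05 (limma, Benjamini-Hochberg over 22180 genes, two-sided).

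These counts stand against a wide background of change. Of all genes, 45.3% were called in Wnt against hindbrain (22% lower and 23.2% higher), 37.8% in Shh against hindbrain (18.9% lower and 18.9% higher) and 35.8% in Wnt against Shh (17.8% lower and 18% higher). Of the 9 genes, 4 were lower in both tumours than in hindbrain (Gkn3, Alpl, Bmx and Stmn2), against 11.9% of all genes, and both comparisons share the hindbrain arrays. The median log2 difference of the 9 genes was -1.66 in Wnt against hindbrain, -0.97 in Shh against hindbrain and -0.32 in Wnt against Shh, beside -0.023, -0.02 and -0.0019 over all genes. All 5 genes that fell in Wnt against hindbrain did so with no overlap between the groups, where 9.42% of all genes were lower, 10.6% higher and 20% either without overlap. Of the 5 that fell in Shh against hindbrain, all but Gja5 had no overlap (5.55% of all genes lower, 7.13% higher and 12.7% either). In Wnt against Shh, 0 of the 9 genes were without overlap, beside 10.1% of all genes (5.8% higher and 4.32% lower).

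**Figure D1:**
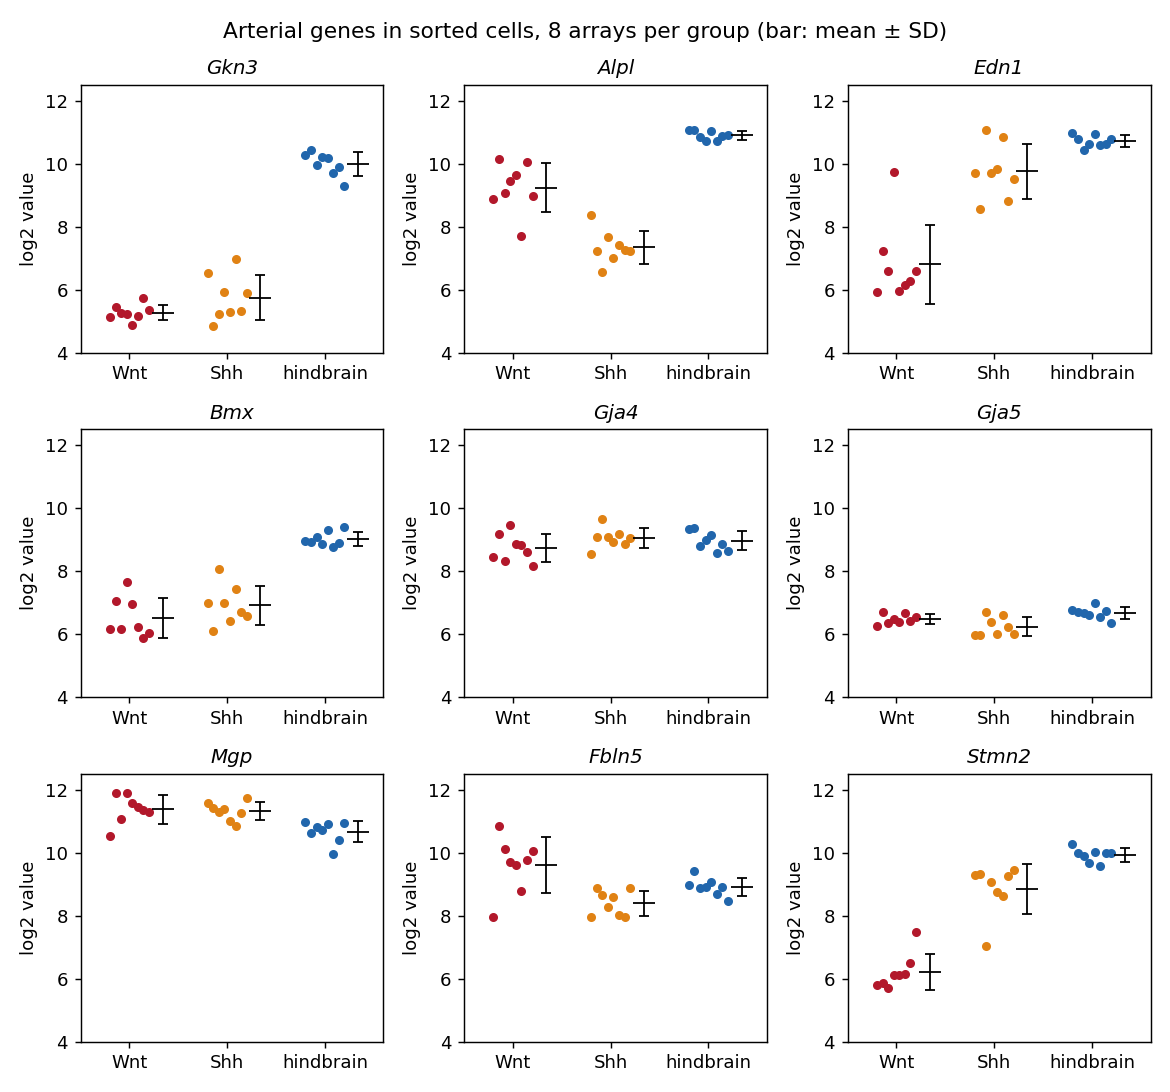
Log2 values (y axis) of the 9 arterial genes on 8 Wnt, 8 Shh and 8 hindbrain arrays (points, in replicate order), with the mean and SD at the right of each group. Gkn3 and Bmx sit low in both tumours, Stmn2 and all but 1 Edn1 value sit low in Wnt arrays, Alpl is lowest in Shh arrays, and the connexins Gja4 and Gja5 overlap between the groups.

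**Figure D2:**
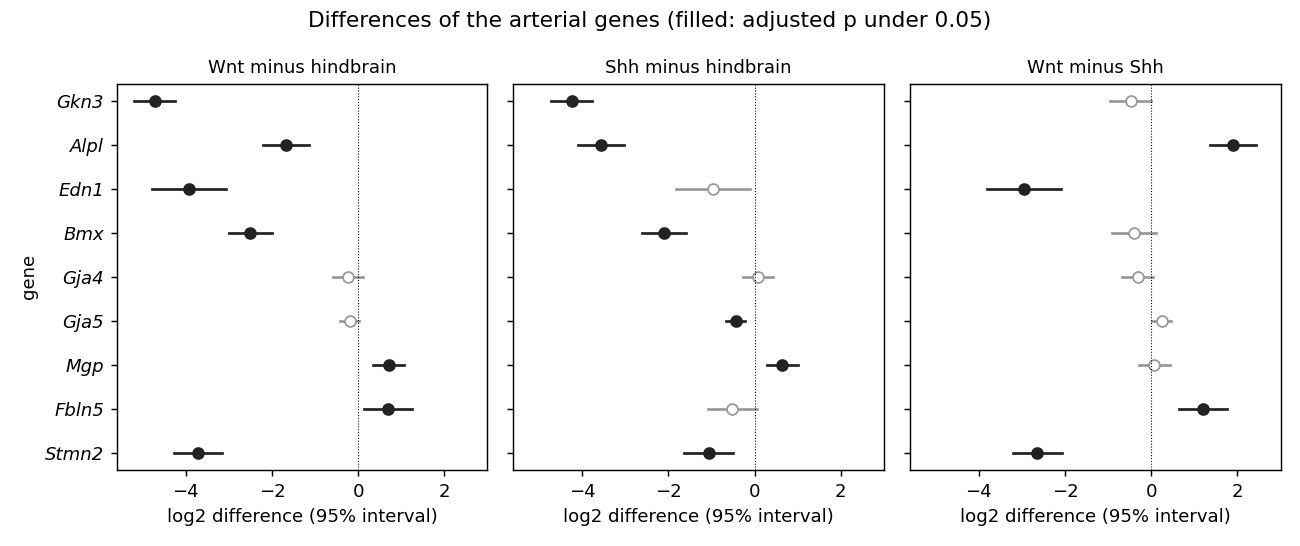
Log2 differences (x axis) with 95% intervals of the 9 arterial genes (y axis) in the 3 comparisons, from the linear model over all genes; filled black points passed the test and open grey points did not. Gkn3 has the lowest value in both comparisons with hindbrain, at -4.72 in Wnt and -4.24 in Shh arrays.

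Gkn3, the gastrokine of brain arteries, had the largest difference of the 9. It ranged from 4.89 to 5.73 with a median of 5.24 on Wnt arrays, from 4.84 to 6.96 with a median of 5.61 on Shh arrays and from 9.28 to 10.43 with a median of 10.07 on hindbrain arrays. Every tumour array lay below every hindbrain array, and 4 Wnt and 2 Shh arrays were under the dim level, so the size of the fall is uncertain. Gkn3 fell by 4.72 ± 0.23 on the log2 scale in Wnt (SE, adjusted p = 2.63e-14) and by 4.24 ± 0.23 in Shh arrays (adjusted p = 1.17e-12). Wnt minus Shh was -0.48 (95% interval -0.95 to -0.002, adjusted p = 0.113), which did not pass the test. The other gastrokines were on the array too, and Gkn2 fell in Shh against hindbrain (-0.30 ± 0.087). Its means were 5.40 in Shh and 5.70 in hindbrain arrays, close to the dim level of 5.24.

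Alpl, the alkaline phosphatase that releases phosphate from pyrophosphate and other substrates, fell in both tumours and more in Shh. It ranged from 7.70 to 10.16 with a median of 9.26 on Wnt arrays, from 6.57 to 8.38 with a median of 7.25 on Shh arrays and from 10.71 to 11.07 with a median of 10.90 on hindbrain arrays. No tumour array reached the hindbrain range, and only Wnt replicate 6 lay within the Shh range. The log2 difference was -1.66 ± 0.26 in Wnt (3.17-fold lower, adjusted p = 7.46e-06) and -3.56 ± 0.26 in Shh arrays (11.8-fold lower, adjusted p = 1.24e-10), number 8 by size among genes lower there. Alpl was 3.73-fold higher in Wnt than in Shh arrays (1.90 ± 0.26, adjusted p = 2.12e-06). Its dimmer probe set gave -1.75 ± 0.21 in Wnt against hindbrain, -2.85 ± 0.21 in Shh against hindbrain and 1.10 ± 0.21 in Wnt against Shh.

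Bmx, the arterial Tec family kinase, fell in both tumours. It ranged from 5.87 to 7.66 with a median of 6.20 on Wnt arrays, from 6.12 to 8.05 with a median of 6.84 on Shh arrays and from 8.76 to 9.39 with a median of 8.94 on hindbrain arrays. Every tumour array was below every hindbrain array. Bmx was 5.66-fold lower in Wnt (-2.50 ± 0.25, adjusted p = 6.06e-09) and 4.31-fold lower in Shh arrays (-2.11 ± 0.25, adjusted p = 2.76e-07) than in hindbrain. Wnt minus Shh was -0.39 (95% interval -0.90 to 0.11, adjusted p = 0.229).

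Edn1, the precursor of endothelin 1, had the largest spread of the 9 genes within each tumour group. It ranged from 5.91 to 9.74 with a median of 6.42 on Wnt arrays, from 8.57 to 11.06 with a median of 9.70 on Shh arrays and from 10.43 to 10.97 with a median of 10.71 on hindbrain arrays. Wnt replicate 4 held the value of 9.74 and the next highest Wnt array was at 7.23, so all Wnt arrays but that one lay below every Shh array. Shh replicates 3 and 6, at 11.06 and 10.84, reached the hindbrain values, and the other 6 Shh arrays were below all of them. Edn1 was 15.1-fold lower in Wnt than in hindbrain arrays (-3.92 ± 0.41, adjusted p = 2.08e-08) and 7.72-fold lower than in Shh arrays (-2.95 ± 0.41, adjusted p = 3.28e-06). Shh minus hindbrain was -0.97 ± 0.41 (adjusted p = 0.0681), and this passed the test without Shh replicate 3 (-1.16), without Shh replicate 6 (-1.12), without Wnt replicate 4 (adjusted p = 0.00643), with array weights (adjusted p = 0.0142) and in a fit to these 2 groups alone (adjusted p = 0.0108). The SD of Edn1 was 1.26 in Wnt, 0.86 in Shh and 0.18 in hindbrain arrays, while the model uses a single spread for the 3 groups.

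Among 10 other genes of endothelin signalling and vascular tone, Wnt against hindbrain had 3 rises, 4 falls and 3 that missed the threshold (median -0.36). The endothelin receptor gene Ednrb (2.32 ± 0.27) and Ace, the angiotensin converting enzyme (0.998 ± 0.33), rose, and Edn3, another endothelin (-2.13 ± 0.24), Nos3, the endothelial nitric oxide synthase (-2.03 ± 0.17), and Gucy1b1, a subunit of the nitric oxide receptor (-0.96 ± 0.20), fell. The endothelin converting enzyme Ece1 fell as well (-0.61 ± 0.12). Shh against hindbrain gave 2 rises, 1 fall and 7 genes not past the test (median -0.13). Ednrb (adjusted p = 0.000111) and Ece2 (0.79 ± 0.092) rose and Edn3 fell (-2.21 ± 0.24). In Wnt against Shh, 2 rose and 3 fell, with Nos3 at -1.78 ± 0.17.

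Of the connexins, Gja4 passed the test in no comparison and Gja5 in 1. Gja4 ranged from 8.16 to 9.47 with a median of 8.72 on Wnt arrays, from 8.55 to 9.67 with a median of 9.07 on Shh arrays and from 8.59 to 9.38 with a median of 8.94 on hindbrain arrays. The 3 groups overlapped widely. The log2 difference was -0.24 in Wnt against hindbrain (95% interval -0.59 to 0.11, adjusted p = 0.28), 0.08 in Shh against hindbrain (-0.27 to 0.43, adjusted p = 0.752) and -0.32 in Wnt against Shh (-0.67 to 0.035, adjusted p = 0.158). Gja5 ranged from 6.26 to 6.71 with a median of 6.46 on Wnt arrays, from 5.99 to 6.71 with a median of 6.12 on Shh arrays and from 6.36 to 6.99 with a median of 6.69 on hindbrain arrays. It fell by 0.44 ± 0.11 in Shh against hindbrain (adjusted p = 0.0023), although the groups overlapped, and gave -0.19 in Wnt against hindbrain (-0.42 to 0.03, adjusted p = 0.157). Wnt minus Shh was 0.25 (0.022 to 0.47, adjusted p = 0.0808).

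The endothelial marker mean was lower in Wnt arrays, and relative to it both connexins were higher in Wnt than in hindbrain arrays (0.71, adjusted p = 0.000107 for Gja4, and 0.75, adjusted p = 0.000101 for Gja5). The same rescaling moved the median of all genes by about as much, to 0.92, so that neither connexin lay above it. Gkn3, Edn1, Bmx, Stmn2 and Alpl were lower in Wnt than in hindbrain on both scales. Of 11 other connexins, 3 were higher, 2 lower and 6 not called in Wnt against hindbrain (median -0.14). Gja1, a connexin of many cell types (1.74 ± 0.15), Gjb2 (0.88 ± 0.21) and Gjb6 (0.57 ± 0.19) rose, and Gjc3 (-1.91 ± 0.31) and Gjc1 (-0.49 ± 0.13) fell. Shh against hindbrain gave 3 rises, Gja1 (0.94 ± 0.15), Gjc3 (0.81 ± 0.31) and Gjc1 (0.33 ± 0.13), and 8 did not pass the test. In Wnt against Shh, 3 rose, led by Gjb2 (1.16 ± 0.21), and 3 fell, led by Gjc3 (-2.71 ± 0.31).

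Mgp and Fbln5, both secreted into the vessel wall, were the genes that rose against hindbrain, Mgp in both tumours and Fbln5 in Wnt arrays. Mgp, the matrix Gla protein, ranged from 10.52 to 11.90 with a median of 11.40 on Wnt arrays, from 10.85 to 11.74 with a median of 11.33 on Shh arrays and from 9.96 to 10.96 with a median of 10.77 on hindbrain arrays. The ranges touched, with 1 Wnt and 1 Shh array below the highest hindbrain array. Mgp was 1.64-fold higher in Wnt (0.71 ± 0.17, adjusted p = 0.00149) and 1.56-fold higher in Shh arrays (0.64 ± 0.17, adjusted p = 0.00489) than in hindbrain. Wnt minus Shh was 0.065 (-0.29 to 0.42, adjusted p = 0.81).

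Fbln5, fibulin 5, ranged from 7.94 to 10.84 with a median of 9.74 on Wnt arrays, from 7.96 to 8.88 with a median of 8.43 on Shh arrays and from 8.47 to 9.43 with a median of 8.91 on hindbrain arrays. Wnt replicates 1 and 6 lay within or below the hindbrain range and the other 6 Wnt arrays above it. Fbln5 was 2.31-fold higher in Wnt than in Shh arrays (1.20 ± 0.27, adjusted p = 0.001). It was 1.61-fold higher in Wnt than in hindbrain arrays (0.69 ± 0.27, adjusted p = 0.0419), a call that was lost in 12 of 24 fits that each left out a single array and in the fit to these 2 groups alone (adjusted p = 0.0689). Shh minus hindbrain was -0.52 ± 0.27 (adjusted p = 0.141), and it passed the test in the fit to these 2 groups alone (adjusted p = 0.0145).

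Markers of fibroblasts, which make both proteins, were higher in the tumours as well. Their mean over 10 genes was 9.37 (8.52 to 9.83) in Wnt, 9.09 (8.72 to 9.90) in Shh and 7.94 (7.68 to 8.16) in hindbrain arrays, and 8 of 10 rose and 1 fell in each tumour against hindbrain. Dcn, which encodes decorin and was the brightest of the 10 in each group, stood at 13.37 in Wnt, 12.22 in Shh and 11.34 in hindbrain arrays. The gene that fell was Dpt in Wnt (-1.25 ± 0.30) and Ogn in Shh arrays (-1.65 ± 0.32). Lum in Wnt (0.26 ± 0.29) and Dpt in Shh arrays (-0.18 ± 0.30) did not pass the test. Of 10 pericyte markers, 6 fell and 0 rose in Wnt against hindbrain, and 2 fell, 1 rose and 7 did not pass in Shh against hindbrain. Over 24 arrays with group means taken out, the pericyte mean correlated with Mgp at r = 0.65 and with Fbln5 at r = 0.39. The fibroblast mean correlated with Mgp at r = 0.51 and with Fbln5 at r = -0.025. The part of fibroblast RNA in the values of Mgp and Fbln5 was not tested.

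Of 13 other genes of elastic fibres, Wnt arrays had 8 higher, 1 lower and 4 not called against hindbrain (median 1.37). Fbln1, fibulin 1 (4.10 ± 0.18), Fbn2, fibrillin 2 (3.32 ± 0.21), and Ltbp1, which binds latent TGF-beta (3.29 ± 0.28), rose and Ltbp4 fell (-1.98 ± 0.14). Eln, which encodes elastin, rose in Wnt (1.75 ± 0.20) and fell in Shh arrays (-1.003 ± 0.20). Of the same 13 genes, 7 rose, 2 fell and 4 did not pass in Shh against hindbrain (median 0.52), with Loxl1, a crosslinking enzyme of elastin, at 1.46 ± 0.25. In Wnt against Shh, 7 rose and 2 fell (median 0.76), with Ltbp1 at 3.52 ± 0.28 and Fbln1 at 3.20 ± 0.18.

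Of 9 other genes of mineralisation, the process that Alpl promotes and Mgp inhibits, 4 were higher, 2 lower and 3 not called in Wnt against hindbrain (median 0.17). The ligands Bmp4 (2.93 ± 0.16) and Bmp2 (2.85 ± 0.25) and Nt5e, which makes adenosine (2.25 ± 0.25), rose, and the transporter Abcc6 fell (-2.57 ± 0.18). Nt5e (0.91 ± 0.25) and Bmp4 (0.72 ± 0.16) rose, Bmp2 fell (-0.96 ± 0.25) and 6 did not pass in Shh against hindbrain. In Wnt against Shh, 4 rose, led by Bmp2 (3.81 ± 0.25), and Abcc6 fell (-2.23 ± 0.18).

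Stmn2, the microtubule regulator, fell in both tumours and further in Wnt arrays. It ranged from 5.70 to 7.49 with a median of 6.11 on Wnt arrays, from 7.03 to 9.46 with a median of 9.17 on Shh arrays and from 9.57 to 10.28 with a median of 9.99 on hindbrain arrays. No tumour array reached the hindbrain range, and Wnt replicate 8 (7.49) and Shh replicate 3 (7.03) were the only tumour arrays that crossed each other. Stmn2 was 13.1-fold lower in Wnt (-3.71 ± 0.27, adjusted p = 3.6e-11) and 2.1-fold lower in Shh arrays (-1.07 ± 0.27, adjusted p = 0.00287) than in hindbrain. It was 6.22-fold lower in Wnt than in Shh arrays (-2.64 ± 0.27, adjusted p = 2.84e-08).

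Neurons, which also make Stmn2, were read from their markers. The mean over 12 genes was 6.36 (6.13 to 6.64) in Wnt, 7.35 (6.37 to 7.85) in Shh and 6.36 (6.05 to 6.68) in hindbrain arrays. In Wnt against hindbrain, 3 rose and 3 fell, and in Shh against hindbrain, 7 rose and 3 fell. The 3 that fell with Stmn2 in Wnt against hindbrain were Snap25, a protein of synaptic vesicle release (-2.33 ± 0.38, with means of 6.04 in Wnt and 8.37 in hindbrain arrays), Nefl (-0.89 ± 0.16) and Elavl3 (-0.74 ± 0.23), and Tubb3 (2.27 ± 0.38), Map2 (1.02 ± 0.31) and Syt1 (0.87 ± 0.24) rose. In Shh arrays Snap25 gave 0.86 ± 0.38 against hindbrain (adjusted p = 0.077), and Dcx, a marker of young neurons, rose the most (3.54 ± 0.25). Dcx was dim in Wnt (4.41) and hindbrain arrays (4.63) and stood at 8.17 in Shh arrays. Nefl was dim in Wnt arrays (4.51) and close to the dim level in hindbrain arrays (5.41). Shh replicate 3, the lowest in Stmn2, was also the lowest Shh array in neuron markers (6.37) and in markers of granule neuron precursors (7.65) and the highest in endothelial markers (11.76). Over 24 arrays with group means taken out, Stmn2 correlated with the neuron mean at r = 0.62 and with the endothelial mean at r = -0.46. It correlated as closely with the means of granule neuron precursor markers (r = 0.62) and of astrocyte markers (r = 0.61). These values pool the groups and need not hold within each of them. Stmn2 with Edn1, for example, gave r = -0.79 among Shh, -0.051 among Wnt and 0.67 among hindbrain arrays. The part of neuronal, precursor or astrocyte RNA in the values of Stmn2 was not tested. Of the other stathmins, Stmn3 rose in Shh against hindbrain (1.85 ± 0.24) and Stmn4 fell in Wnt against hindbrain (-0.43 ± 0.076). Of the other Tec kinases, Btk (-2.10 ± 0.28) and Tec (-0.78 ± 0.15) fell beside Bmx in Wnt against hindbrain, and both fell in Shh against hindbrain (-1.44 ± 0.28 and -0.49 ± 0.15). Btk is also a gene of microglia, whose 7 measured markers all fell in each tumour against hindbrain.

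**Figure D3:**
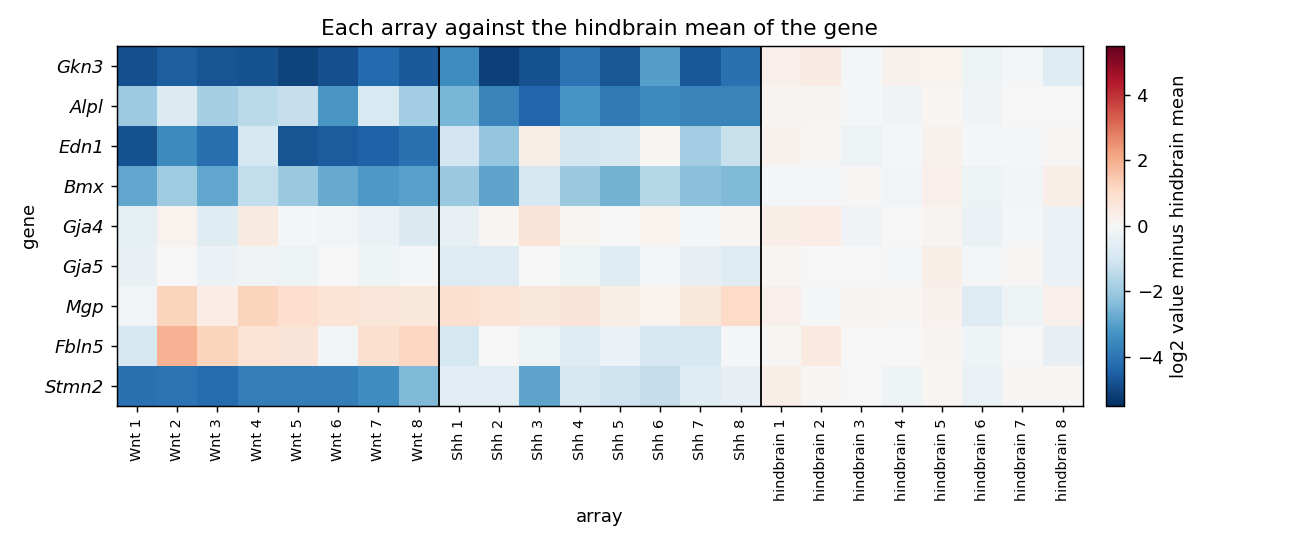
Each array's log2 value minus the hindbrain mean of that gene (colour), for the 9 arterial genes (rows) on 24 arrays (columns, Wnt, Shh, hindbrain). Edn1 is at 9.74 on Wnt 4 and at 11.06 on Shh 3, nearer to the hindbrain mean than on most arrays of their groups, and Stmn2 on Shh 3, at 7.03, is the lowest of the Shh arrays.

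The genes also differed in how they varied within groups. Edn1 and Bmx went together: with group means taken out their correlation over 24 arrays was r = 0.77, with r = 0.76 among Wnt, 0.88 among Shh and 0.34 among hindbrain arrays. Wnt replicate 4 was the highest Wnt array in Edn1 (9.74), Bmx (7.66), Gja4 (9.47), Mgp (11.90) and endothelial markers (11.15). Shh replicate 3 was the highest Shh array in Edn1 (11.06), Bmx (8.05), Gja4 (9.67) and Gja5 (6.71), and also in endothelial markers (11.76). With group means taken out, the endothelial mean correlated over 24 arrays with Bmx at r = 0.67, with Gja4 at r = 0.66 and with Edn1 at r = 0.52. It gave r = -0.028 with Gkn3 and r = -0.038 with Alpl. These values pool the groups, so an r near 0 can hide opposite signs in different groups. Alpl with Edn1, for example, gave r = 0.75 among hindbrain and -0.26 among Shh arrays. Gkn3 and Bmx, which were low in the same groups, had r = 0.085 once group means were taken out. The groups differed in sign, with r = -0.36 among Wnt, 0.35 among Shh and -0.38 among hindbrain arrays. Gkn3 was dim on 4 Wnt and 2 Shh arrays, which limits its r values there. The labels give 1 sorting and labelling protocol for all arrays and do not say which were prepared together, so these values only describe the arrays.

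**Figure D4:**
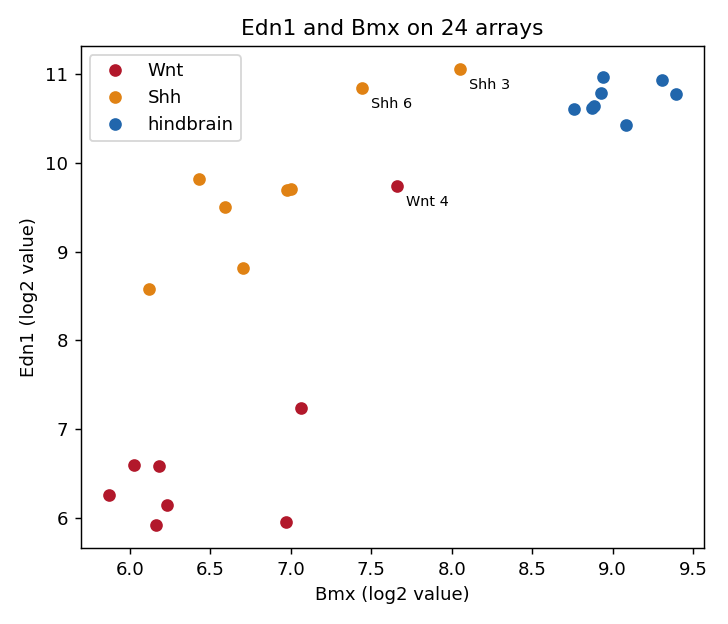
Edn1 (y axis) against Bmx (x axis), both log2 values, on 8 Wnt, 8 Shh and 8 hindbrain arrays. Wnt 4 lies apart from the other Wnt arrays, and Shh 3 and Shh 6 have Edn1 values of 11.06 and 10.84, as high as hindbrain arrays, with Bmx values of 8.05 and 7.44, below all of them.

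Over the 24 arrays, the gene whose level was most like that of Gkn3 was Pln (r = 0.98), which encodes phospholamban, a regulator of the calcium pump of muscle, followed by Tm6sf2 (r = 0.97). Pln fell in both tumours against hindbrain (-3.50 ± 0.12 in Wnt and -3.53 ± 0.12 in Shh). For Bmx they were Sema3g (r = 0.97), a semaphorin of arterial endothelium, and Ceacam1 (r = 0.96), and for Edn1 they were Plpp6 (r = 0.97) and the transcription factor gene Mecom (r = 0.96). The pairs of Edn1 and Bmx kept r between 0.76 and 0.88 with group means taken out, and those of Gkn3 kept 0.64 and 0.69. Alpl was most like Mlxipl and Emp2 (both r = 0.92), with 0.30 and 0.12 once group means were taken out. Stmn2 was most like S100b (r = 0.93) and Megf9 (r = 0.92), Mgp like Anxa1 and Cyp7b1 (both r = 0.87), and Fbln5 like Dkk1 and Abca5 (both r = 0.82). Gja5 (at most r = 0.79, with 1700123O12Rik and Rasl10a) and Gja4 (r = 0.78 with both Mprip and Fhl5) had the least close neighbours.

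Smooth muscle, which wraps arteries and which Pln also marks, was read from 8 markers. Their mean was 8.62 (8.32 to 8.88) in Wnt, 7.61 (7.27 to 7.75) in Shh and 8.82 (8.44 to 9.11) in hindbrain arrays. Of the 8, 7 fell and 1 rose in Shh against hindbrain, and in Wnt against hindbrain 3 fell, 2 rose and 3 did not pass. Myh11, the smooth muscle myosin heavy chain, fell in both (-2.12 ± 0.15 in Wnt and -2.65 ± 0.15 in Shh). Acta2, smooth muscle actin, fell in Shh (-1.65 ± 0.27) and gave -0.43 ± 0.27 in Wnt arrays (adjusted p = 0.216). Myocd, a coactivator of smooth muscle genes, rose in Wnt (1.5015 ± 0.30) and fell in Shh arrays (-1.38 ± 0.30), as did Mylk, myosin light chain kinase (0.96 ± 0.13 in Wnt and -0.56 ± 0.13 in Shh). The marker that rose in Shh arrays was Smtn, smoothelin (0.48 ± 0.14). With group means taken out, the smooth muscle mean correlated with Gkn3 at r = 0.039 and with Fbln5 at r = 0.41. The part of smooth muscle RNA in the differences of the arterial genes was not tested.

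Other arterial genes were read from a list of 14 that holds none of the 9. In Wnt against hindbrain 8 fell and 4 rose, and 2 were not called (median -0.46). The median of the 16 endothelial markers was -0.89 in that comparison and 0.018 in Shh against hindbrain. Sox17, a transcription factor of arterial fate (-2.45 ± 0.19), Ltbp4 (-1.98 ± 0.14) and Sema3g (-1.97 ± 0.20) fell, and Clu, which encodes clusterin (1.38 ± 0.23), the Notch target Hey2 (0.54 ± 0.15) and the VEGF co-receptor Nrp1 (0.42 ± 0.094) rose. In Shh against hindbrain 7 fell, 0 rose and 7 did not pass (median -0.38), with Sema3g (-1.86 ± 0.20), the chemokine Cxcl12 (-1.68 ± 0.25) and the growth factor Vegfc (-1.46 ± 0.16) lowest. In Wnt against Shh 5 rose and 4 fell (median 0.11). Hey2 (1.59 ± 0.15), Clu (1.53 ± 0.23) and the ephrin Efnb2 (0.66 ± 0.13) were higher, and Sox17 (-1.49 ± 0.19), Hey1 (-1.41 ± 0.16) and the Notch ligand Dll4 (-0.69 ± 0.15) were lower in Wnt arrays. The related Notch targets Hey1 and Hey2 had opposite signs here.

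**Figure D5:**
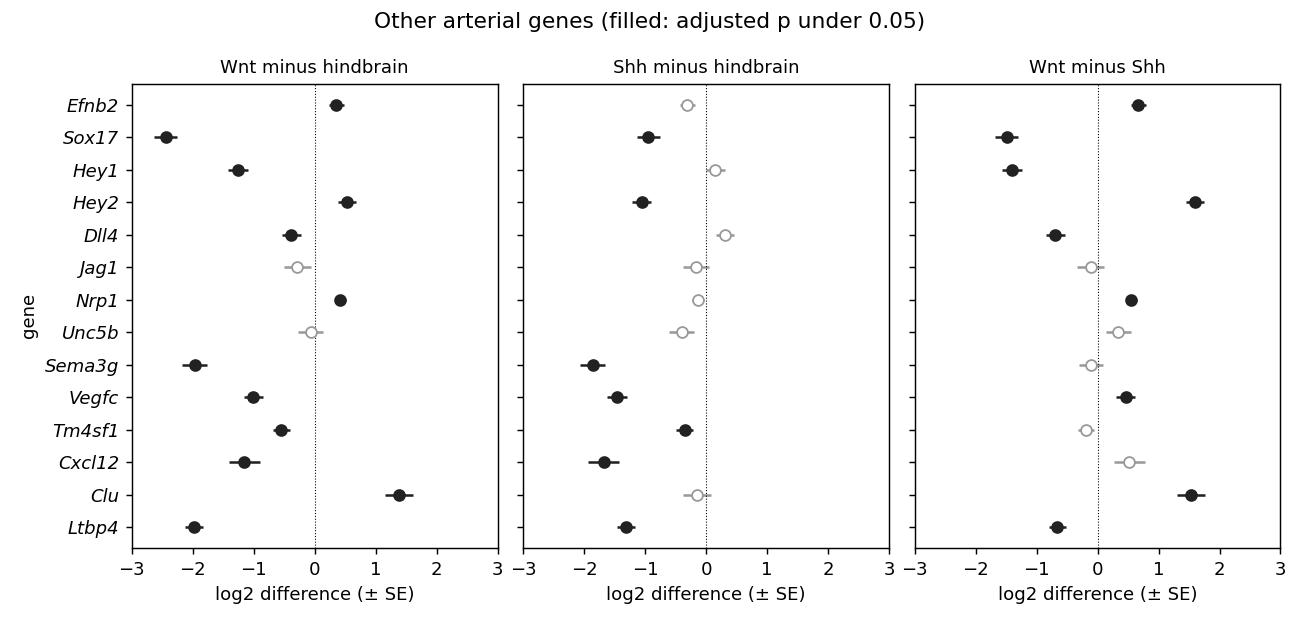
Log2 differences (x axis) with SE of 14 other arterial genes (y axis) in the 3 comparisons; filled black points passed the test and open grey points did not. Sox17, Sema3g, Vegfc, Tm4sf1, Cxcl12 and Ltbp4 are lower in both tumours, while Hey1 and Hey2 differ between Wnt and Shh arrays in opposite directions.

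Genes listed as flow response genes fell without exception among those called. Of 8, all fell in Wnt against hindbrain (median -1.60), led by the transcription factor genes Klf4 (-2.35 ± 0.23) and Klf2 (-1.95 ± 0.16) and Nos3. Shh arrays had 5 falls against hindbrain and 3 genes that did not pass (median -0.86), with Klf4 at -1.83 ± 0.23, Thbd, thrombomodulin, at -1.07 ± 0.15 and Cav1, caveolin 1, at -0.98 ± 0.16. Between the tumours, 5 were lower in Wnt than in Shh arrays and the other 3 did not pass (median -0.82). Of the 16 endothelial markers, 15 fell in Wnt against hindbrain (median -0.89) and 15 in Wnt against Shh (median -0.94). Shh against hindbrain had 2 falls and 1 rise among these markers (median 0.018). Whether a change of flow had a part in these values was not tested. Nos3 is also on the list of vascular tone genes, as Ltbp4 is on the elastic fibre list.

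Genes of the other segments of the vascular tree were read for comparison. Of 8 capillary genes, all fell in Wnt against hindbrain (median -3.01), led by Car4 (-4.29 ± 0.44), Slco1c1 (-4.05 ± 0.41) and the monocarboxylate transporter Slc16a1 (-3.28 ± 0.21). Of the same 8 in Shh against hindbrain, 1 fell, the transferrin receptor Tfrc (-1.14 ± 0.22), 1 rose, Slc16a1 (0.73 ± 0.21), and 6 did not pass (median -0.19). The 11 venous genes split evenly in Wnt against hindbrain, 3 higher and 3 lower with 5 not past the test (median -0.19). In Shh arrays 6 were higher and 1 lower than in hindbrain (median 0.65). Ackr1, a chemokine receptor of venules (4.21 ± 0.32), Aplnr, the apelin receptor (3.37 ± 0.19), and Lcn2 (3.02 ± 0.24) rose in Shh arrays and Icam1 fell (-1.09 ± 0.25). Aplnr (2.69 ± 0.19), Lcn2 (2.42 ± 0.24) and Selp (1.63 ± 0.46) also rose in Wnt against hindbrain. Slc38a5 (-2.94 ± 0.31), Icam1 (-2.36 ± 0.25) and Vwf (-1.06 ± 0.21) fell there. No test compared the lists with each other.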

How the data were processed

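The files hold 1 log2 value per probe set on each of 24 arrays, deposited by the authors. Partek 6.6 is named in the submitters' processing notes. How values were summarised, corrected for background and normalized is not given in the sources used here. Of 41345 probe sets, 23521 name 1 gene in the platform annotation, and each gene was taken from its brightest one. The deposited values were not rescaled. limma 3.58.1 (R 4.3.3) fitted 1 mean per group over 22180 genes and all arrays (lmFit, eBayes, 21 residual degrees of freedom), after being tested on simulated data. P-values were adjusted by Benjamini-Hochberg over all genes, and values after ± are SE unless SD is named. The number of arrays limits the precision.

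The 9 genes, the lists and the tests were chosen with earlier results of these data known. Of each list, the text names up to 3 called genes with the largest rises and up to 3 with the largest falls in a comparison, and a few others chosen after their values were seen. The most similar genes are the 2 with the highest Pearson r. Arrays that share a replicate number did not deviate together (r from -0.146 to 0.282), so the numbers were not used as pairs. Alternatives changed the probe set, normalization, dim gene filter, variance model, arrays and scale. Promoters are from RefSeq, build GRCm38.p6. Positions of probe sets are not printed, as no build is named for them.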

Additional observations from a re-analysis of the deposited data

Results flagged for a closer look

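In 3 of 27 gene and group pairs, a single array stood far from the other 7 of its group (chance flags about 1 in 20 such groups). Edn1 was at 9.74 on Wnt replicate 4, with the next array at 7.23. Stmn2 was at 7.49 on Wnt replicate 8, with the next at 6.51, and at 7.03 on Shh replicate 3, with the next at 8.61. Wnt replicate 8 was also the lowest Wnt array in endothelial markers (9.94). Without Wnt replicate 4, Edn1 in Wnt against hindbrain was -4.34.

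The differences from hindbrain were not alike in the tumours for 4 genes, with the test of that difference being Wnt minus Shh. It was 1.90 for Alpl, -2.95 for Edn1, 1.20 for Fbln5 and -2.64 for Stmn2.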

How the results depend on the processing

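Of 288 values of the 9 genes under 11 other settings, 274 kept their direction and side of the threshold, 2 lost the call, 7 gained it and 5 changed sign. The 5 sign changes came from expressing each array relative to its endothelial marker mean, which moved the median of all genes to 0.92 in Wnt against hindbrain, 0.052 in Shh against hindbrain and 0.87 in Wnt against Shh. They were Gja4 (0.71) and Gja5 (0.75) in Wnt against hindbrain, and Gkn3 (0.40), Bmx (0.48) and Gja4 (0.55) in Wnt against Shh. On that scale 20420, 3633 and 20143 of all genes were called in the 3 comparisons (19748 higher and 672 lower, 2253 and 1380, 19694 and 449), and 8 of the 9 genes in Wnt against Shh (6 higher, 2 lower), with Gja5 in Shh against hindbrain no longer called (-0.37). Quantile normalization and a shift to the same median brought Gja5 past the threshold in Wnt against Shh (0.30 and 0.31). With the replicate block, the calls among the 9 genes were 7, 6 and 4 as without it. Leaving out 1 array at a time gave 6 to 7, 6 to 7 and 4 to 5 calls, and 625 of 648 values kept direction and call. Sign changes were Gja4 in Shh against hindbrain (-0.0086 to 0.15) and Mgp in Wnt against Shh (-0.0097 to 0.19), neither of which passed the test. Without Shh replicate 2, Gkn3 passed in Wnt against Shh (-0.61), as did Gja4 without Wnt replicate 4 (-0.42) and Gja5 without Shh replicate 3 or 6 (0.31 and 0.30). The causes of these changes were not tested. Signal over background limits Gkn3 in the tumours, where 6 of 16 values were dim. Edn1, Bmx and Stmn2 had no dim value. Their Wnt medians of 6.42, 6.20 and 6.11 were near the array medians of 5.97 to 6.18, so the size of their falls in Wnt arrays is less certain too.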
